A study of Mus musculus with 8 samples.

Results

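The genes described here encode parts of cilia and of the machinery that builds them, measured in the brains of young adult (6m, 6 months) and aged (24m, 24 months) mice. Members were the protein-coding genes of the deposited count table whose symbol begins with Dnah, Dnai, Dnali, Cfap, Rsph, Ift or Bbs followed by a digit. The rule found 104 of the 22430 listed genes and used no measured value. The Dnah, Dnai, Dnali, Cfap and Rsph genes formed the motile class of 77 genes, and the Ift and Bbs genes formed the transport class of 27 genes. All 8 animals were males of the inbred strain C57Bl/6JRj with no allele or treatment named, 4 of each age, and each gave 1 library. The tissue is labelled whole brain and described as a brain hemisphere, so every value is an average over all its cell types. Polyadenylated RNA was sequenced from directional libraries, and the unit used below is CPM (counts per 1e+06 counts of a library, after scaling).

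A motile cilium beats by means of dynein motors that slide its microtubule doublets against each other, with radial spokes and a central pair of microtubules coordinating the stroke. In the brain such cilia stand in tufts on the ependymal cells that line the ventricles, and they move cerebrospinal fluid. Neurons and astrocytes instead carry a single primary cilium, an immotile antenna for signalling receptors. Both kinds are assembled and supplied by intraflagellar transport (IFT), in which IFT-B and IFT-A complexes are carried by kinesin and dynein, and the BBSome, a coat of Bardet-Biedl syndrome (BBS) proteins, moves membrane receptors in and out.

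RFX transcription factors bind a motif named the X-box in promoters of many ciliary genes, so promoter windows of members are shown first. RefSeq windows (GRCm38.p6, from 250 bases before to 50 after a gene start) were matched for 69 of the 104 members, 3 of them by an older symbol. An X-box, searched on both strands with a spacer of 1 to 3 bases, stood in a window of 38 of 49 motile-class genes (77.6%) and 11 of 20 transport-class genes (55.0%). The same search matched 6633 of all 17492 protein-coding genes of the table (37.9%). The shorter letters GTTGCC, picked after the X-box result was seen and also searched on both strands, stood in 17 of 49 motile-class genes (34.7%), in 9 of 20 transport-class genes (45.0%) and in 14.3% of all genes. Base composition was not matched in these shares, and an X-box can contain GTTGCC.

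The windows below belong to members named in the results and to the Dnah7 paralogs. Each shows 60 bases on the strand that carries the match, placed on GRCm39 by an exact match of the RefSeq window, with GTTGCC in capitals.
Bbs1, chr19:4956622-4956681, minus strand: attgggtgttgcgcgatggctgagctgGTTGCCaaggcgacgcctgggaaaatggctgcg
Cfap20, chr8:96161559-96161618, plus strand: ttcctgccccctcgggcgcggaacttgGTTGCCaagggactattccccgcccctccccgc
Cfap298, chr16:90731893-90731952, minus strand: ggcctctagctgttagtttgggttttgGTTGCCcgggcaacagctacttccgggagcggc
Ift56, chr6:38358399-38358458, plus strand: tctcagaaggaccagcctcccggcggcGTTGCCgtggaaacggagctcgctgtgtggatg
Dnai2, chr11:114618192-114618251, minus strand: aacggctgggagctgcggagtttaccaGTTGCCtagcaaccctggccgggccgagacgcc
Rsph3b, chr17:7215707-7215766, plus strand: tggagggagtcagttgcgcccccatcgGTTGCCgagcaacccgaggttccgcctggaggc
Dnah7a, chr1:53746111-53746170, minus strand: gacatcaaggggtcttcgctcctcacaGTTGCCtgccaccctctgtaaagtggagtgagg
Dnah7b, chr1:46105823-46105882, plus strand: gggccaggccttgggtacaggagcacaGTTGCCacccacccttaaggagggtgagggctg
Dnah7c, chr1:46464432-46464491, plus strand: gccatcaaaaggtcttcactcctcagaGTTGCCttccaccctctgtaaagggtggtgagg
In 3 of these 9 windows, those of Cfap298, Dnai2 and Rsph3b, the letters GCAAC followed within 3 bases. The match began 1 base after the start in Bbs1 and 16 bases after it in Rsph3b, and 26 bases (Dnai2) to 219 bases (Dnah7c) before it in the others.

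The next 5 windows belong to genes that were lower at 24m and lacked GTTGCC, with the X-box match in capitals.
Dnah17, chr11:118019996-118020055, minus strand: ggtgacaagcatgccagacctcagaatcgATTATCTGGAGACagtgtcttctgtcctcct
Dnai1, chr4:41569748-41569807, plus strand: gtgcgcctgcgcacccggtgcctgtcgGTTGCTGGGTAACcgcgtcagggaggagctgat
Rsph9, chr17:46455100-46455159, minus strand: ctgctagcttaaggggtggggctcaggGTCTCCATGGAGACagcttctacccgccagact
Ift43, chr12:86129272-86129331, plus strand: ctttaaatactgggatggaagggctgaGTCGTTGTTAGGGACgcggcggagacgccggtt
Bbs12, chr3:37366569-37366628, minus strand: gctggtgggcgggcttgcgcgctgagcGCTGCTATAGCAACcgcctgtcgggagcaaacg
The windows of Ift20 and Dnah14, which were also lower, held no match to either pattern. Among members with a window, the X-box was found in 16 of 22 called lower, 3 of 3 called higher and 30 of 43 not called.

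Library totals were 63460940 to 74513571 counts at 6m and 72936345 to 103462414 at 24m. The 24m totals of replicates 1, 3 and 4 exceeded every 6m total. An exact permutation test over 70 assignments gave a two-sided p = 0.0857 (n = 4 per age). The cilium genes took 0.133 to 0.139% of counts at 6m and 0.116 to 0.122% at 24m. The deepest library, 24m replicate 1, stood apart from the others of its age, with a chi-square per degree of freedom of 182 to 426 against them, where the other three gave 13.1 to 61.9 among themselves. Defining neuronal, astrocytic, oligodendrocytic and microglial markers were present in every library, and none of the 7 cell type lists held a gene without counts.

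Of the 104 members, 102 had more than 5 counts in at least 4 libraries and were tested. The other two, Cfap97d1 and Cfap107, lay at 0 to 0.11 CPM in every library. A gene was called where the Benjamini-Hochberg adjusted p of edgeR's quasi-likelihood test was at most 0.05 and the log2 fold change (24m against 6m) was at least 0.58 in size.

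Of the 75 tested genes of the motile class 67 had a negative fold change, 33 were called lower in the aged brain and 2 higher, where 18.3% of all 16730 tested genes were called lower and 25.3% higher. Their median log2 fold change was -0.55, against -0.0034 over all tested genes. In 39 of the 75 every 24m library lay below every 6m library, and in 0 did every 24m library lie above. Over all tested genes these shares were 26.8% and 28.4%.

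Of the 27 transport-class genes, all tested, 7 were called lower (Ift20, Ift25, Ift43, Ift27, Ift74, Ift22 and Bbs12) and 3 higher (Bbs1, Ift80 and Ift56), beside 18.3% and 25.3% of all tested genes, and the median log2 fold change was -0.12. Every 24m library lay below every 6m library in 10 genes and above in 5, beside 26.8% and 28.4% of all tested genes. With library totals as the only scaling, the median of all genes moved to 0.21, and the class medians to -0.32 (motile) and 0.0991 (transport), with 14 motile-class and 4 transport-class genes called lower, beside 10.4% of all tested genes. Measured against the median of all genes, the class medians were -0.54 and -0.12 with the main scaling and -0.54 and -0.12 with library totals alone. Scaling acts on whole libraries and shifts all genes nearly alike. These equal values therefore follow from the calculation and are no separate support. The difference between the classes was not tested.

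**Figure D1:**
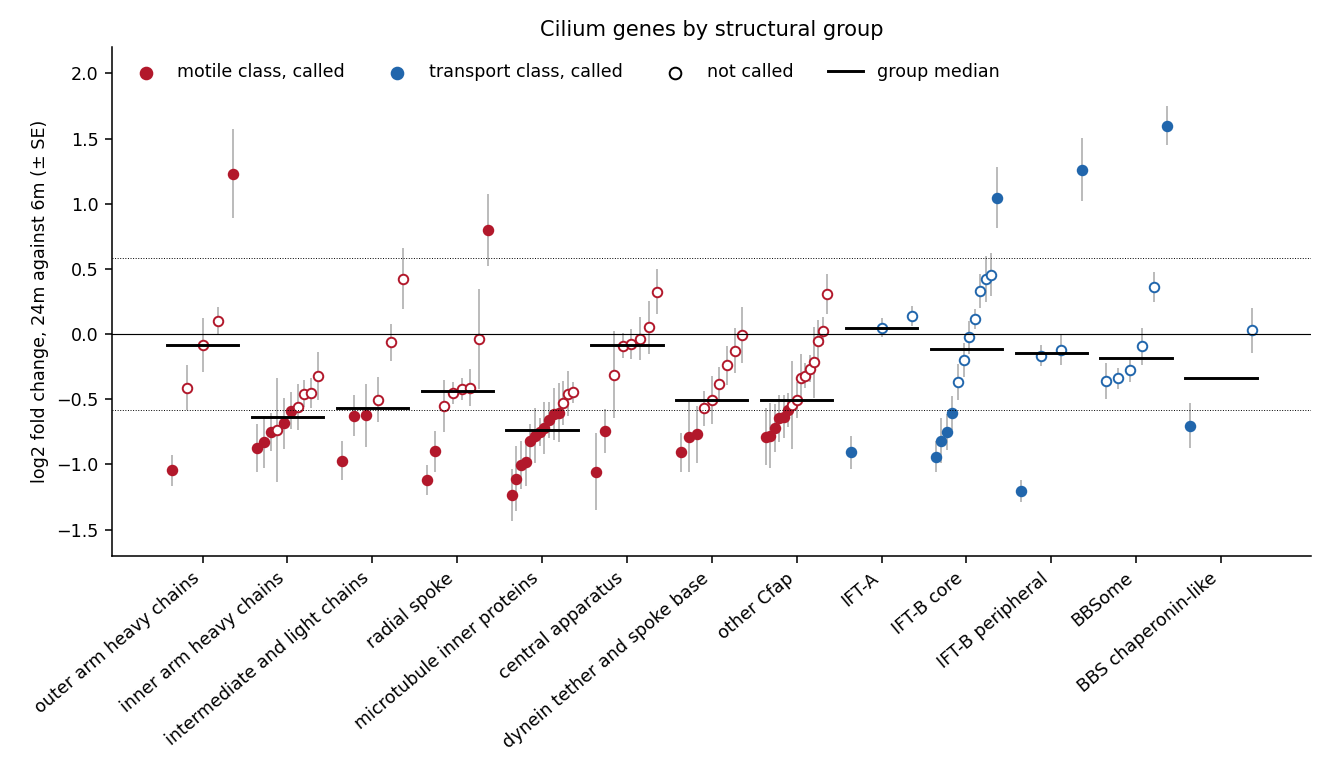
Log2 fold change of the 102 tested cilium genes at 24m against 6m (vertical axis, bars ± SE), arranged by structural group (horizontal axis), with filled points for called genes, a black line for each group's median and dotted lines at the threshold of 0.58. The microtubule inner proteins lie wholly below 0 with a median of -0.74 (-0.45, not plotted, once the trend of fold change with exonic length over all genes is removed), while IFT and BBS genes spread from -1.20 to 1.60.

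Outer arm dyneins give the cilium most of its driving force. Of their 5 heavy chains Dnah17 was called lower and Dnah5 higher, beside 18.3% and 25.3% of all tested genes, with a median of -0.09. With the length trend across all genes removed, Dnah17, Dnah11 (-0.94) and Dnah8 (-0.72) were called lower and none higher, with a median of -0.72. In that setting 20.3% of all tested genes were called lower and 19.6% higher. Dnah17 was the most abundant heavy chain per length (2.86 CPM per kilobase of exon). It lay at 62.4, 53.6, 59.1 and 72.6 CPM in the 6m libraries and at 33.7, 31.2, 29.1 and 26 CPM in the 24m libraries. The ages did not overlap and the level fell by 1.05 on the log2 scale (SE 0.12, adjusted p = 0.000111). Dnah17 (chr11:117912549-118021460, minus strand, GRCm39) has exons overlapped by Pgs1, which went from 169 to 123 CPM.

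Dnah5 is a heavy chain often mutated in primary ciliary dyskinesia, and it was the only heavy chain called higher. Its CPM values were 0.472, 0.651, 0.382 and 0.424 at 6m against 0.502, 1.15, 1.34 and 1.57 at 24m. One aged library, replicate 1, lay within the young range, and the other three lay above it (log2 fold change 1.23, SE 0.34, adjusted p = 0.0108). Dnah9 (log2 fold change 0.10), Dnah8 (-0.09) and Dnah11 (-0.41, adjusted p = 0.0582) were not called.

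Inner arm dyneins shape the bend of the cilium. All 10 of their heavy chains had negative fold changes, from -0.87 to -0.32 with a median of -0.64, and 5 were called lower, beside 18.3% of all tested genes. With the length trend removed all 10 were called lower, and with library totals alone 2, beside 20.3% and 10.4% of all tested genes. Dnah14 was at 1.75, 1.77, 1.99 and 2.87 CPM at 6m and between 1.10 and 1.17 CPM in all 24m libraries (log2 fold change -0.87, SE 0.18, adjusted p = 0.0027). Dnah7a was at 1.62, 1.77, 1.58 and 1.51 CPM at 6m and 0.994, 1.05, 0.829 and 0.963 CPM at 24m (-0.75, SE 0.15, adjusted p = 0.00161). In both genes the ages were fully separated. Lbr, whose exons overlap those of Dnah14, went from 3.88 to 6.59 CPM.

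Dnah7b (-0.83), Dnah7c (-0.69) and Dnah10 (-0.59) were the other called inner arm genes. The 3 Dnah7 genes are paralogs on chromosome 1 that share 14.3 to 23.9% of their 100-base exon stretches with other genes, so reads may be divided between them. Dnah1, the most abundant inner arm chain per length (1.57 CPM per kilobase), went from 24.0 ± 1.93 CPM to 17.5 ± 1.90 CPM (SD, n = 4 each). Its log2 fold change of -0.46 (SE 0.10, adjusted p = 0.00391) passed the test but not the fold threshold, and Bap1, whose exons overlap those of Dnah1, went from 200.2 to 237 CPM.

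Intermediate and light chains anchor the heavy chains to the doublet. Dnai1, an outer arm intermediate chain whose loss immobilises cilia, was at 13.7, 11.9, 12.1 and 14.0 CPM at 6m and at 8.12, 6.85, 6.34 and 5.06 CPM at 24m. The ages did not overlap (log2 fold change -0.97, SE 0.15, adjusted p = 0.000497). Enho, whose exons overlap those of Dnai1, also went down, from 169 to 83.2 CPM, and Fam219a, which overlaps them too, went from 44.7 to 90.5 CPM. Since the use of strand in counting was not stated, the part of such neighbours in a count was not tested.

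Dnai2, the partner of Dnai1 in the outer arm, did not follow it. It was at 5.84, 5.02, 6.12 and 6.60 CPM at 6m and 6.68, 5.68, 5.56 and 4.63 CPM at 24m, with overlapping ages (log2 fold change -0.06, SE 0.14, adjusted p = 0.713). Dnai7 was at 1.36 ± 0.131 CPM at 6m and 0.879 ± 0.0905 CPM at 24m and was called lower (-0.63, adjusted p = 0.00612), but not without 6m replicate 2 (-0.57) or 24m replicate 4 (-0.55). Dnai3 was called narrowly (-0.62, SE 0.24, adjusted p = 0.0453), with overlapping ages, and lost its call in 6 of the 8 fits that left out a library (-0.66 to -0.49, adjusted p = 0.0715 to 0.119), all but those without 6m replicate 2 or 24m replicate 1. Dnali1, an inner arm light chain, reached -0.51 (adjusted p = 0.0273), and Dnai4 0.42 (adjusted p = 0.138).

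Radial spokes transmit signals from the central pair to the dyneins. Rsph1 and Rsph9, both parts of the spoke head, were called lower. Rsph1 was at 13.8, 12.6, 11.4 and 13.8 CPM at 6m and at 6.79, 5.82, 5.60 and 5.55 CPM at 24m (log2 fold change -1.12, SE 0.12, adjusted p = 7.4e-05). Rsph9 was at 39.9, 35.7, 34.1 and 39.0 CPM at 6m and 26.9, 19.3, 17.5 and 16.0 CPM at 24m (-0.90, SE 0.16, adjusted p = 0.000909). Both were separated between ages, and the 24m replicate 1 library gave the highest aged value of each. Mrps18a, whose exons overlap Rsph9, went from 131 to 75.3 CPM.

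Another spoke head gene, Rsph4a, went the other way at a low level. It was at 0.732, 0.608, 0.581 and 0.469 CPM at 6m and at 0.570, 1.02, 1.27 and 1.31 CPM at 24m (log2 fold change 0.80, SE 0.28, adjusted p = 0.0294). As in Dnah5, 24m replicate 1 lay within the young range. The call was lost in 6 of the 8 fits without 1 library (0.67 to 0.81, adjusted p = 0.056 to 0.0818), all but those without replicate 1 of either age.

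The stalk genes Rsph3a and Rsph3b, both on chromosome 17, which share 45.8 and 46.0% of their 100-base exon stretches, had the first and the fourth highest level per length of all members (18.7 and 14.2 CPM per kilobase). Rsph3a was at 68.0, 70.6, 66.4 and 69.0 CPM at 6m and 57.6, 49.6, 51.4 and 46.3 CPM at 24m. Rsph3b was at 66.4, 68.3, 64.9 and 64.5 CPM at 6m and 53.8, 45.2, 49.7 and 44.1 CPM at 24m. In both the ages were separated, and the log2 fold changes of -0.42 (adjusted p = 0.00205) and -0.45 (adjusted p = 0.00138) stayed inside the fold threshold.

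**Figure D2:**
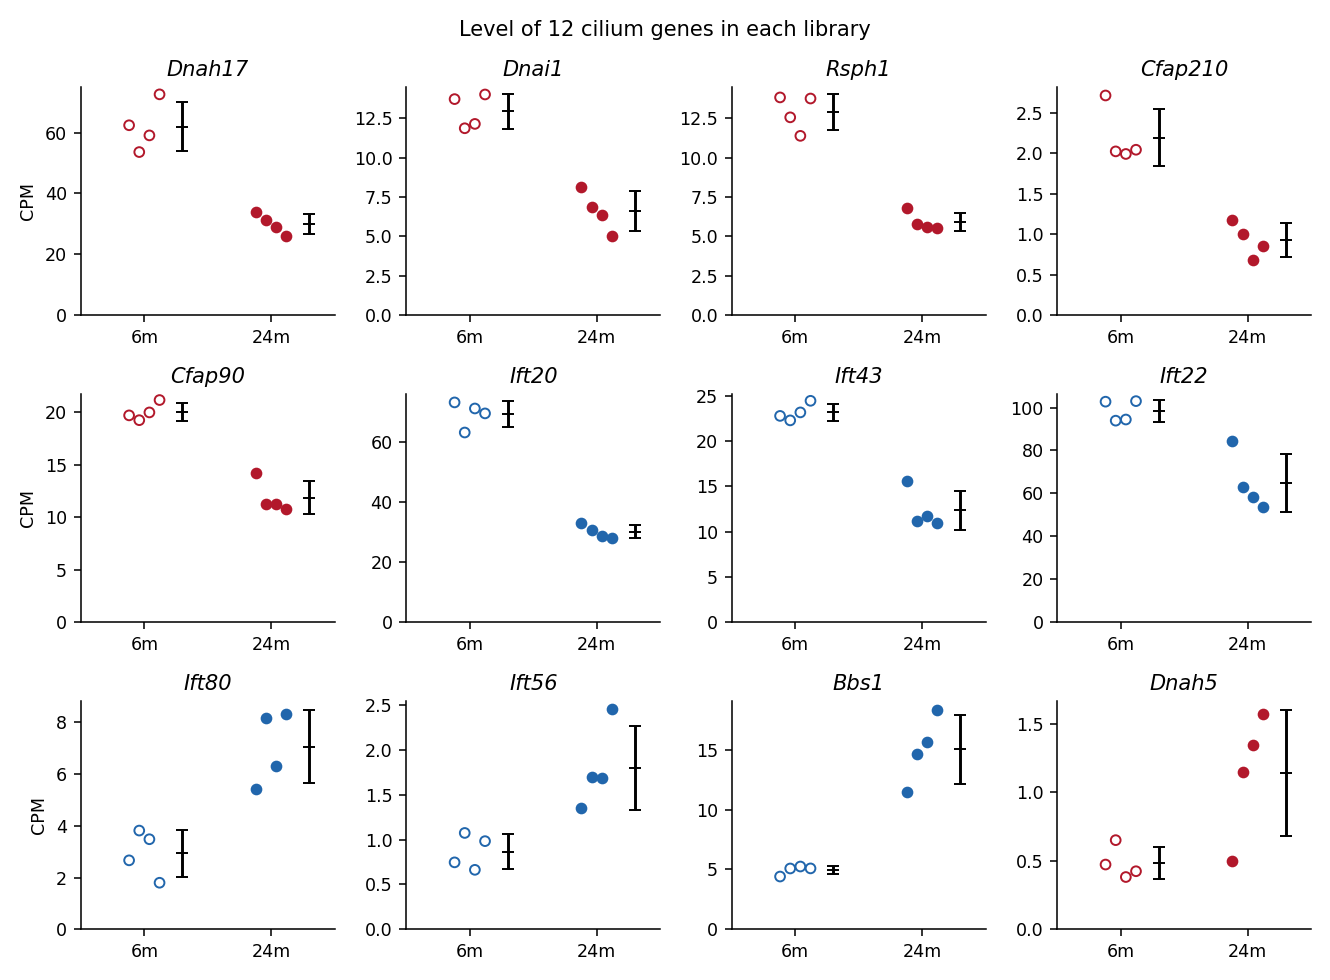
CPM of 12 cilium genes in each library (vertical axis, from 0), with open points for the 6m and filled points for the 24m libraries, black bars for mean ± SD (n = 4), motile-class genes in red and transport-class genes in blue. The first 8 genes are separated downwards, Ift80, Ift56 and Bbs1 upwards, and Dnah5 overlaps through 24m replicate 1.

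Cfap genes encode cilia and flagella associated proteins of several structures. Of 46 tested, 22 were called lower and 0 higher by edgeR, beside 18.3% and 25.3% of all tested genes. At an adjusted p of at most 0.05 with no fold threshold 31 were lower, beside 29.9% of all tested genes. At an unadjusted p under 0.05, and by DESeq2 or limma-voom, the number higher was also 0. Microtubule inner proteins line and stiffen the inside of the doublets. All 14 tested genes of this kind had an adjusted p under 0.05 with a negative fold change (median -0.74), 11 were called, and 12 were fully separated between ages. With the length trend across all genes removed, 5 of the 14 were called lower, beside 20.3% of all tested genes. Their median was then -0.45, against -0.56 for the motile class and -1.18 for the inner arm heavy chains. The order of these groups thus depends on this setting. With library totals alone 8 Cfap genes were called lower, 5 of them microtubule inner proteins, beside 10.4% of all tested genes. The grouping by structure was made with the gene values known.

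Cfap210 had the lowest fold change of all members. It was at 2.71, 2.02, 1.99 and 2.04 CPM at 6m and 1.18, 0.999, 0.684 and 0.860 CPM at 24m (log2 fold change -1.23, SE 0.20, adjusted p = 0.000654). Cfap90 was at 19.7, 19.2, 19.99 and 21.2 CPM at 6m and 14.2, 11.3, 11.3 and 10.7 CPM at 24m (-0.75, SE 0.11, adjusted p = 0.000371). Both were well apart between the ages, and in both the highest aged value came from 24m replicate 1.

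Cfap68, another doublet protein, was at 53.8, 50.4, 49.4 and 55.7 CPM at 6m and 38.1, 28.3, 27.6 and 24.7 CPM at 24m (-0.82, SE 0.13, adjusted p = 0.000621). Cfap53 (-1.11), Cfap141 (-1.01), Cfap144 (-0.98), Cfap126 (-0.78), Cfap276 (-0.72), Cfap45 (-0.66), Cfap77 (-0.61) and Cfap161 (-0.60) were the other called inner proteins. For Cfap141, 88.1% of 100-base stretches also occur in another gene. Cfap20, which seals the inner junction of the doublet, was separated between ages at 42.8 ± 2.13 and 31.4 ± 1.97 CPM but stayed inside the fold threshold (-0.45, adjusted p = 0.00127).

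Genes of the central apparatus, the pair of microtubules in the middle of the axoneme with its projections, had a median of -0.08, and Cfap221 (-1.06) and Cfap65 (-0.74) of 8 were called lower, beside 18.3% of all tested genes. Cfap74 (-0.09), Cfap46 (-0.08) and Cfap54 (0.33, adjusted p = 0.124) were not called. With the length trend across all genes removed, the group median was -0.60 and 4 of the 8 (Cfap221, Cfap65, Cfap47 and Cfap74) were called lower, beside 20.3% of all tested genes, with Cfap74 at -0.68 and Cfap46 at -0.50. Proteins that tether dyneins or sit at the base of the spokes had a median of -0.51, and Cfap100 (-0.91), Cfap43 (-0.79) and Cfap73 (-0.77) of 9 were called, beside the same 18.3%.

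Of the 15 other tested Cfap genes 6 were called lower, beside the same 18.3%, among them Cfap410, which also has a role in primary cilia and went from 81.8 ± 4.84 to 52.6 ± 14.4 CPM (-0.64, adjusted p = 0.00774). Its 24m values were 73.4, 50.1, 46.9 and 40.2 CPM, the first from replicate 1. Cfap298, a factor needed for dynein arm assembly, had the highest level per length of the Cfap genes (8.91 CPM per kilobase) and was at 48.3 ± 0.585 and 38.7 ± 4.80 CPM (-0.32, adjusted p = 0.0151).

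Of 19 intraflagellar transport genes 6 were called lower and 2 higher, beside 18.3% and 25.3% of all tested genes. Once the length trend was removed 9 were called lower and 4 higher, beside 20.3% and 19.6% of all tested genes. IFT-B carries cargo towards the tip, and Ift20, its member that also works at the Golgi, had the smallest adjusted p of all members. It was at 73.3, 63.2, 71.2 and 69.6 CPM at 6m and 32.9, 30.7, 28.8 and 28 CPM at 24m (log2 fold change -1.20, SE 0.09, adjusted p = 2.19e-05). The lowest young library lay well above the highest aged one. Tnfaip1, whose exons overlap those of Ift20, went from 15.4 to 25.7 CPM.

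Ift25 and Ift27 form a subcomplex of IFT-B that exports signalling proteins from the cilium, and both were called lower. Ift25 was at 8.79, 8.57, 7.91 and 8.26 CPM at 6m and 5.03, 4.51, 4.19 and 3.74 CPM at 24m (-0.94, SE 0.12, adjusted p = 0.000199). Ift27, a small GTPase, was at 76.1, 66.0, 65.3 and 79.0 CPM at 6m and 56.6, 38.7, 35.5 and 31.6 CPM at 24m (-0.82, SE 0.17, adjusted p = 0.00246). Lrrc42, whose exons overlap those of Ift25, went from 33.2 to 22.7 CPM (-0.55). Both IFT genes were separated between ages, with the values of Ift27 widely spread at 24m.

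Ift22 had the highest level per length of the transport class (18 CPM per kilobase). This GTPase-like IFT-B gene was at 103, 93.9, 94.4 and 103 CPM at 6m and 84.2, 62.8, 58.2 and 53.9 CPM at 24m (-0.60, SE 0.13, adjusted p = 0.00328). Its call was lost without 24m replicate 3 (-0.56) or replicate 4 (-0.53). Ift74, which binds tubulin together with Ift81, went from 11.4 ± 1.72 to 6.79 ± 0.774 CPM (-0.75, adjusted p = 0.00131), while Ift81 was not called (-0.20, adjusted p = 0.216). Ift46, at -0.37 (adjusted p = 0.0386), passed the test alone.

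The IFT-B genes that were higher lay at low levels. Ift80 was at 2.67, 3.82, 3.48 and 1.80 CPM at 6m and 5.43, 8.16, 6.33 and 8.33 CPM at 24m (log2 fold change 1.26, SE 0.24, adjusted p = 0.00149). Ift56 was at 0.747, 1.07, 0.663 and 0.984 CPM at 6m and 1.35, 1.70, 1.69 and 2.45 CPM at 24m (1.05, SE 0.23, adjusted p = 0.0034). In both, every aged library was above every young one. The paralogs Ift70a1, Ift70a2 and Ift70b, which share 19.1 to 39.8% of their stretches with other genes, had values of 0.33 to 0.46 and were not called.

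Other large IFT-B genes showed small differences that were not called, with Ift172 at -0.17, Ift57 at -0.12, Ift88 at -0.03 and Ift52 at 0.11. Of the IFT-A genes, whose complex returns material to the cell body, Ift43 was called lower. It was at 22.8, 22.3, 23.2 and 24.4 CPM at 6m and 15.6, 11.2, 11.7 and 10.9 CPM at 24m (-0.91, SE 0.12, adjusted p = 0.000287). Its complex partners Ift122 (0.05, adjusted p = 0.571) and Ift140 (0.14, adjusted p = 0.128) had no call, so the 3 listed IFT-A genes ran from a clear fall to a small positive value.

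Among BBS genes, Bbs1 had the largest rise of all members. It was at 4.40, 5.08, 5.24 and 5.08 CPM at 6m and 11.4, 14.6, 15.7 and 18.3 CPM at 24m (log2 fold change 1.60, SE 0.15, adjusted p = 5.14e-05). The lowest aged library exceeded the highest young one, and no other annotated gene overlaps the exons of Bbs1 (chr19:4936906-4956676, minus strand, GRCm39).

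No other BBSome subunit with a Bbs symbol was called. Bbs2, the most abundant per length (4.90 CPM per kilobase), was at 30.1 ± 1.16 and 23.8 ± 1.33 CPM (-0.34, adjusted p = 0.00442). Ogfod1, whose exons overlap those of Bbs2, went from 7.37 to 34.1 CPM. Bbs4 was at 23.2 ± 2.36 and 29.7 ± 3.67 CPM (0.36, adjusted p = 0.0194), and its value was 0.02 when the trend over GC content was removed. Bbs5 (-0.36), Bbs9 (-0.27) and Bbs7 (-0.09) were not called.

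Bbs12, a chaperonin-like protein that helps to assemble the BBSome, was called lower, the only one of the 8 genes with a Bbs symbol. It was at 3.11, 3.00, 2.99 and 3.57 CPM at 6m and 2.32, 2.25, 1.44 and 1.77 CPM at 24m (-0.70, SE 0.17, adjusted p = 0.00567). With library totals alone (-0.49) or with the length trend removed (-0.47) Bbs12 lost its call. Cetn4, whose exons overlap those of Bbs12, went from 6.51 to 3.81 CPM (-0.77).

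Levels per length differed widely between and within the classes. The median was 0.449 CPM per kilobase in the motile class, with a range of 0.0184 (Dnah12) to 18.7 (Rsph3a), and 2.09 in the transport class, with a range of 0.228 (Ift56) to 18 (Ift22). In 70 members another annotated gene overlaps some exon. Among the 33 tested members with no such overlap 11 were called lower and 4 (Dnah5, Rsph4a, Bbs1 and Ift80) higher, beside 18.3% and 25.3% of all tested genes, and 8 of the 22 of these in the motile class were called lower.

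Gene length moved with the fold change across the whole table. Medians of all tested genes in 10 bins of exonic length, equal in gene number, went from -0.67 in the shortest to 0.52 in the longest. The motile class lay below that median in every bin, with -0.88 over 6 genes in the shortest and -0.41 over 19 genes in the longest. With the length trend removed, the median of all genes was -0.09, the motile median was -0.56 with 36 genes called lower, and the transport median was -0.47 with 10 called lower and 5 higher. Of all tested genes 20.3% were then called lower and 19.6% higher.

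**Figure D3:**
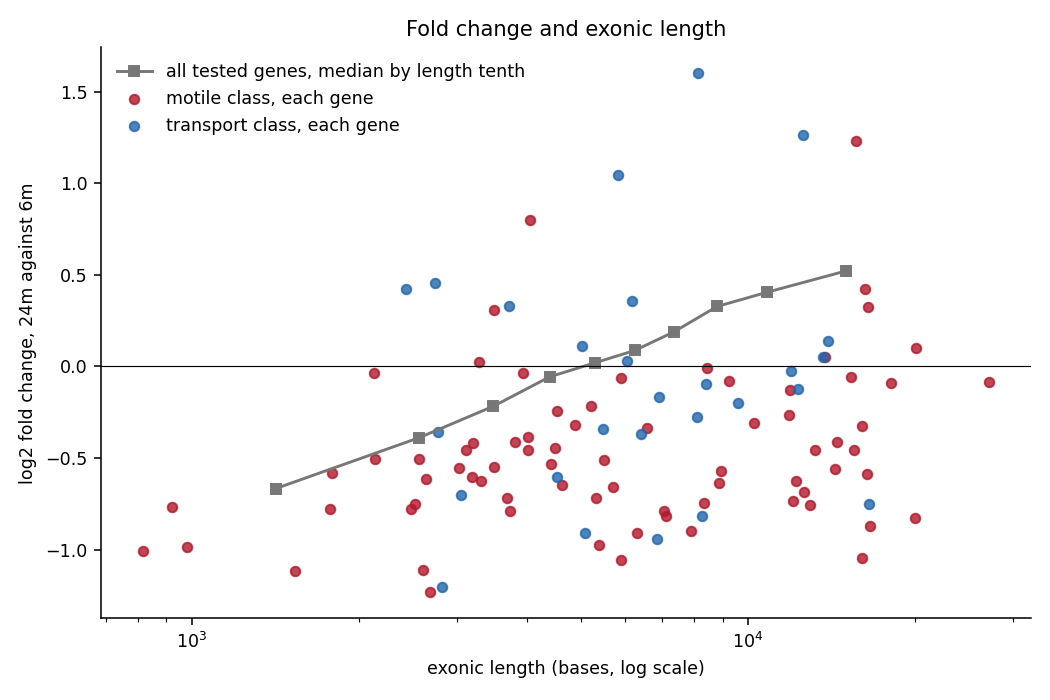
Log2 fold change at 24m against 6m (vertical axis) by exonic length in bases (horizontal axis, log scale) for motile-class (red) and transport-class (blue) genes, with grey squares for the median of all tested genes in each length bin. The grey line climbs from -0.67 to 0.52, and the motile medians lie below it in all 10 bins.

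The length offset also changed single genes. Among short genes, Rsph1 moved from -1.12 to -0.56, Cfap90 from -0.75 to -0.39 and Cfap141 from -1.01 to -0.39. Among long genes, Dnah17 moved from -1.05 to -1.60, Dnah1 from -0.46 to -0.98, and Bbs1 from 1.60 to 1.21. Dnah5 moved from 1.23 to 0.59 and lost its call (adjusted p = 0.0657).

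Other genes of the same pathways were counted from lists. Of 44 other axonemal genes, all tested, 18 were called lower and 2 higher, or 40.9% and 4.5% beside 18.3% and 25.3% of all tested genes, with a median of -0.49. The tektin filament genes Tekt1 (-0.70), Tekt2 (-0.92), Tekt4 (-0.97) and Tekt5 (-0.85), the doublet ruler Ccdc39 (-0.93) and the inner protein Pierce1 (-1.01) were among the lower ones. Tcte1 (0.75) and the outer arm light chain Dnal1 (2.30, from 1.60 to 7.91 CPM) were higher. After removal of the length trend 13 were called lower and 2 higher with a median of -0.39, beside 20.3% and 19.6% of all tested genes. Tekt1 (-0.23), Tekt2 (-0.45) and Tekt5 (-0.35) were then within the fold threshold.

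Of 12 tested dynein assembly factors, which fold the arms in the cytoplasm, Dnaaf1, Dnaaf4, Zmynd10 and Ccdc103 were called lower and Dnaaf9 higher, or 33.3% and 8.33% beside 18.3% and 25.3% of all tested genes, with a median of -0.31. After removal of the length trend Dnaaf1 (-0.35), Dnaaf4 (-0.50), Zmynd10 (-0.18) and Dnaaf9 (0.46) lost their calls, while Spag1 was called lower and Dnaaf5 higher. Of 12 regulators of multiciliated cells 0 were called lower by edgeR, and Rfx3 (1.71), Rfx4 (1.01) and Trp73 (0.62) were called higher (3 of 12), beside 25.3% of all tested genes called higher. At an unadjusted p under 0.05, and by DESeq2 or limma-voom, the number lower was also 0, and the lowest value was -0.34 (Mcidas, adjusted p = 0.125). Trp73 lost its call with the length trend removed (0.48). Foxj1, the master regulator of motile cilia, was at 14.8, 12.7, 13.6 and 15.6 CPM at 6m and 20.3, 15.4, 16.3 and 13.6 CPM at 24m (0.21, adjusted p = 0.195).

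Of 18 other transport genes and motors, 4 were called lower (the IFT dynein chains Dync2i1 at -0.89 and Dync2i2 at -0.59, the BBSome subunit Bbip1 at -0.83 and the chaperonin-like Mkks at -0.79) and 2 higher (the IFT-A gene Wdr19 at 0.71 and the kinesin Kif3b at 1.76), or 22.2% and 11.1% of the list beside 18.3% and 25.3% of all tested genes. Once the length trend was removed 7 were lower and 1 (Kif3b) higher, beside 20.3% and 19.6% of all tested genes. Dync2i2 (-0.52) and Wdr19 (0.20) lost their calls. Of 27 genes of the transition zone and of ciliary signalling, 3 were lower (B9d1, B9d2 and Iqcb1) and 5 higher (Tmem231, Rpgrip1l, Tulp3, Sstr3 and Gpr161), or 11.1% and 18.5% beside 18.3% and 25.3% of all tested genes. The list's median was 0.01, and -0.23 with the length trend removed. In that setting 6 were called lower and 2 (Gpr161 and Mchr1) higher, beside 20.3% and 19.6% of all tested genes. B9d2 (-0.41), Tmem231 (0.34), Rpgrip1l (0.52), Tulp3 (0.15) and Sstr3 (0.56) lost their calls. The ciliary receptors Mchr1 (0.17) and Htr6 (0.01) were not called in the main setting.

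Markers of cell types moved with age as well. The summed level of 11 ependymal markers was 250 to 337 CPM at 6m and 139 to 229 CPM at 24m, without overlap, and 7 of the 11 were called lower with a median of -0.92, beside 18.3% of all tested genes. Ccdc153 went from 11.5 to 4.80 CPM and Rarres2 from 62.2 to 33.0 CPM. Pltp, a phospholipid transfer protein that was not called (-0.55, adjusted p = 0.0150), made up 55.2 to 62.4% of the sum in each library. Without Pltp and Rarres2, left out after their values were seen, the sum was 54.5 to 69.7 CPM at 6m and 32.4 to 55.6 CPM at 24m, and 24m replicate 1 lay within the young range. Foxj1 of this list had a positive fold change (0.21, adjusted p = 0.195), which was 0.42 with the length trend removed (adjusted p = 0.00384). At least Dynlrb2 and Foxj1 are themselves ciliary genes. Dynlrb2 was also counted among the other axonemal genes called lower. The list was therefore not separate from the cilium genes. In this bulk tissue, fewer ependymal cells and less RNA per cell cannot be told apart.

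Choroid plexus markers, dominated by Ttr, summed to 1810 to 3252 CPM at 6m and 849 to 2298 CPM at 24m, with overlap, and 4 of 12 (Kl, Clic6, F5 and Cldn2) were called higher and 0 lower by edgeR, beside 25.3% and 18.3% of all tested genes. At an unadjusted p under 0.05, and by DESeq2 and limma-voom, Ttr, Folr1 and Ecrg4 were lower (3 genes). Of 6 neuronal markers Syt1, Gad1 and Gad2 were called higher, beside 25.3% of all tested genes. Rbfox3 was at -0.35 (adjusted p = 0.0023), and Slc17a7, the largest part of the neuronal sum in each library, was not called (0.27). That sum was 2164 to 2706 CPM at 6m and 2978 to 3431 CPM at 24m. Of 6 astrocytic markers Slc1a3, Slc1a2, Aqp4, Gja1 and Gfap were called higher, beside the same 25.3%, and Aldh1l1 was at -0.26 (adjusted p = 0.0723), with a sum of 458 to 508 CPM at 6m and 954 to 1063 CPM at 24m. Oligodendrocyte (3282 to 4137 against 3540 to 4159 CPM), microglial (281 to 286 against 320 to 369 CPM) and endothelial (73.3 to 108 against 43.9 to 65.8 CPM) sums were also measured. In the endothelial list Ly6c1 (45.5 to 19.0 CPM) and Cldn5 (31.7 to 15.2 CPM) were called lower and Flt1 (1.24) higher, or 33.3% and 16.7%. Over all tested genes the shares were 18.3% and 25.3%. Cdh5 was at 0.57 (adjusted p = 0.0123). The part of cell composition in the cilium gene values was not tested.

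Across libraries the motile class was separated by age. The median over its genes of the log2 level relative to each gene's own mean was 0.23 to 0.32 in the 6m libraries and -0.06, -0.24, -0.42 and -0.32 in 24m replicates 1 to 4. Replicate 1 was the aged library nearest to the young ones. The transport class gave -0.07 to 0.18 at 6m and -0.10 to 0.09 at 24m, with overlap. Without 24m replicate 1, 38 motile-class genes were called lower and the motile median was -0.62.

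**Figure D4:**
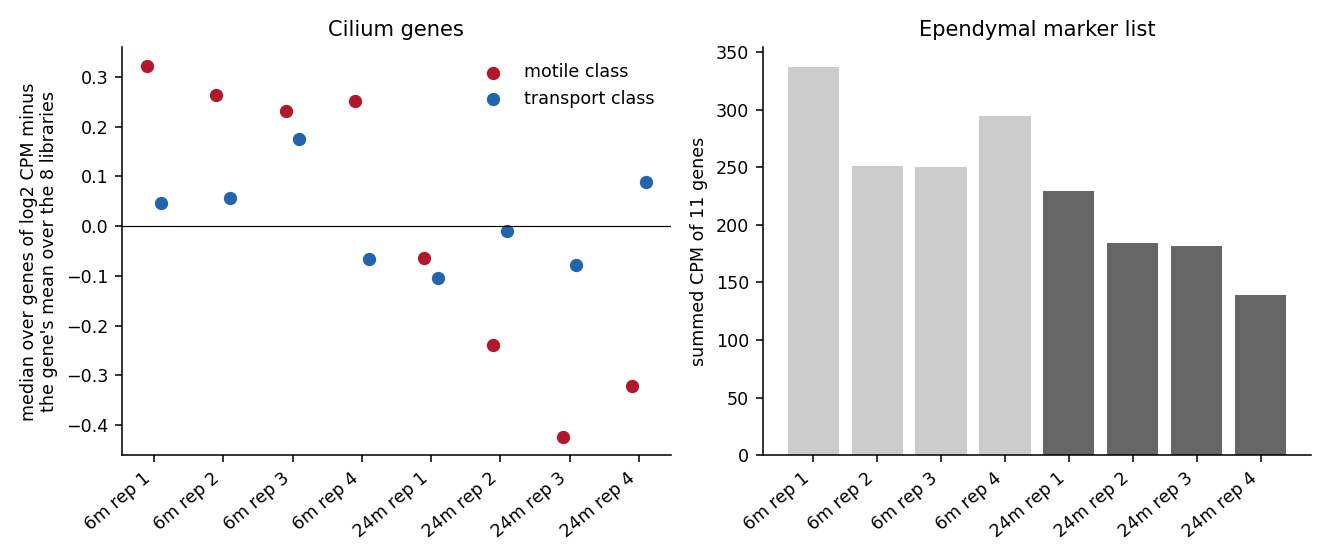
On the left, for each library (horizontal axis), the median over motile-class (red) and transport-class (blue) genes of log2 CPM relative to each gene's mean over the 8 libraries, and on the right the summed CPM of the 11 ependymal markers, light for 6m and dark for 24m, most of which is Pltp. Both the motile medians and the marker sums are separated between ages, while the transport medians overlap.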

How the data were processed

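The authors trimmed reads with Trim Galore 0.4.11 and aligned them with HISAT2 2.1.0 to GRCm39 (versions from the submitters' processing notes), then counted reads per gene with featureCounts. The deposited values are raw counts per Ensembl gene and library, with no library pooled. The use of strand and of multimapping reads was not given in the sources used here. Library totals ran from 63460940 to 103462414 counts. Replicates are separate animals per the study's methods.

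Symbols, positions and exonic lengths came from the GENCODE annotation of GRCm39, which matched 22281 of 22430 identifiers. A gene entered the test if at least 4 libraries held more than 5 counts of it (16730 genes). Ages were compared by edgeR 4.0.16 in R 4.3.3 (quasi-likelihood, TMM scaling, no covariate), and p-values were adjusted by Benjamini-Hochberg over all genes tested. Each SE is the log2 fold change divided by the root of F. CPM were scaled by TMM factors, and log2 CPM used a prior count of 2. Fits were tested on simulated data. Alternatives were other factors, DESeq2 1.42.0, limma-voom (limma 3.58.1), quantile-normalized counts, other filters, each library left out, the replicate number as a block, thinning, and removal of length or GC trends.

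In each symbol family, the 3 called members of smallest adjusted p and the 2 highest per exonic length were named. Other genes given with values were picked after these were seen. Members, gene lists and structural groups were chosen with earlier results of these data known. Protein sequences were not used here.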

Additional observations from a re-analysis of the deposited data

Results flagged for a closer look

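In 58 sets of 4 libraries (29 named genes at 2 ages), the gap of the highest or lowest library to its neighbour, over the range of the set, exceeded Dixon's 95% critical value in 3, and chance flags about 1 in 20 such sets. Cfap210 was at 2.71 CPM in 6m replicate 1 and at 1.99 to 2.04 CPM in the other 6m libraries. Dnah1 was at 20.3 CPM in 24m replicate 1 against 16.3 to 16.8 CPM. Dnai7 was at 0.745 CPM in 24m replicate 4 against 0.911 to 0.946 CPM. The young and aged libraries of these 3 genes did not overlap.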

How the results depend on the processing

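Of 29 named genes, 17 kept their side of the threshold in every alternative that gave them a value, and none changed sign except Dnai2, which was not called (-0.38 to 0.15). With library totals alone 14 motile-class genes were called lower (33 with the main scaling), 6 transport-class genes higher and 4 lower. Of all tested genes 32.6% were then called higher and 10.4% lower. The class medians were -0.32 and 0.0991, the latter reversed. Quantile-normalized counts with DESeq2 gave 1 motile-class gene called higher and medians of -0.79 and -0.32. Removal of the length trend gave 1 and 5 genes called higher, beside 19.6% of all tested genes, and a transport median of -0.47. Removal of the GC trend gave 1 motile-class gene called higher and a transport median of -0.46. With limma-voom 1 motile-class gene was called higher, and with at least 1 CPM in 4 libraries 0. At an adjusted p alone, 50 motile-class genes were lower, and 5 transport-class genes higher and 11 lower, beside 32.8% higher and 29.9% lower of all tested genes. Without the Cfap genes 11 motile-class genes were lower. Without members that overlap another gene's span or have a near-identical paralog, 4 of 13 motile-class genes were lower, and of 8 transport-class genes 3 were lower and 0 higher, with a median of -0.27. Over all tested genes 18.3% were called lower and 25.3% higher. These sets hold fewer genes, and the part of overlapping genes and paralogs in these differences was not tested. For the other changes the cause was not tested either.

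With each library left out in turn, motile-class calls were 26 to 38 lower and 1 to 2 higher, transport-class calls 6 to 7 lower and 3 to 4 higher, and the medians -0.62 to -0.49 and -0.19 to -0.0407. Rsph4a (10 of 18 alternatives), Dnai3 (9 of 18), Ift22 (4 of 19) and Dnai7 (3 of 19) lost their call most often. The replicate number as a block gave 32 motile-class genes called lower and 1 higher and left the transport-class counts at 7 and 3. For each gene, the deviation of a library's log2 CPM from the mean of its age was taken. Over genes, these deviations of same-numbered libraries of the 2 ages correlated at 0.27, 0.14, 0.08 and -0.35. The numbers were therefore not taken to pair animals. Dnah12, the lowest tested member per length, was at -0.74 (SE 0.40, adjusted p = 0.132), and the part of depth in this was not tested.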
